A study of Mus musculus with 24 samples.

Results

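The 10 genes described here are established targets of the transcription factor NRF2: Slc7a11, Gclc, Gclm, Gsr, G6pdx, Txnrd1, Srxn1, Nqo1, Hmox1 and Osgin1. They were taken by name, by matching Ensembl IDs to symbols, from 57010 genes in each of 2 tables of the mouse olfactory epithelium, the sheet of nasal tissue that holds the odor-sensing neurons. The list was chosen with earlier results of these data known. Its counts of calls, set below beside the shares of all genes, are therefore a description and not an independent test. All 10 were present in both tables and passed the filter on low counts in both. The mice were wild-type C57BL/6J males aged 8 weeks, so all groups shared strain, sex and genotype and differed by odorant and by batch. After 4 h in an odor-free chamber each mouse had 90 min with a filter paper carrying 10 µL of odorant, or with an empty paper. The first batch of 12 libraries, called AD, held the ketone acetophenone, the unbranched aldehyde decanal, their 1:1 AD mixture and a no-odor group. The other 12, the OC batch, held octanal, an unbranched aldehyde with a shorter chain, the leaf alcohol cis-3-hexenol, their 1:1 OC mixture and a no-odor group of its own. Each of the 8 groups had 3 biological replicates. The tissue had been perfused with, and homogenised in, buffers holding cycloheximide, a blocker of translation, and RNA came from the cleared detergent extract.

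NRF2, encoded by Nfe2l2, is held at a low level by KEAP1, an adaptor that presents it to a CUL3 ubiquitin ligase for destruction. When electrophiles or oxidants modify cysteines of KEAP1, NRF2 escapes, pairs with a small MAF protein and binds antioxidant response elements near its target genes, while BACH1 competes for the same elements as a repressor. The targets make and recycle glutathione, supply NADPH, reduce thioredoxin and quinones, and break down haem. The olfactory epithelium meets inhaled chemicals directly, and its supporting (sustentacular) cells and glands are rich in detoxifying enzymes.

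The core of the antioxidant response element, TGACNNNGC on either strand, was looked for in windows from 250 bases before to 50 bases after each annotated start site (RefSeq, GRCm38.p6). Windows were matched for 7 of the 10 genes, and 4 of their 9 windows (44.4%) held a match, against 12.4% of all 32544 windows of that length and 24.6% of 65 windows of the further NRF2 targets described later. Gclc, Gsr and Hmox1 had no matched window and were not searched. No match to TGACNNNGC lay in the windows of Slc7a11, Osgin1 and Nqo1, of which the first 2 also changed with odorant exposure. Cores with TGAG in place of TGAC were not searched for, and their share of all windows was not counted. Such a core lies on the opposite strand in the windows of Osgin1 (gctgactca) and Slc7a11 (gctttctca). In Srxn1 another (tgagtcagc) lies before the start site. The 4 matches are shown because G6pdx, Txnrd1 and Srxn1 changed with odorant exposure and Gclm, with the same core, was not called. Each is given 5′ to 3′ on the strand of its gene, and the capitals mark the core, which in all 4 lies on the opposite strand and so reads as its reverse complement.
G6pdx: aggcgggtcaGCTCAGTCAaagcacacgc
Txnrd1: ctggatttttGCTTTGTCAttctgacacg
Srxn1: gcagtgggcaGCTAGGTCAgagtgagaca
Gclm: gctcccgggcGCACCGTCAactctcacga
In G6pdx (chrX:74428929-74428937, minus strand) the core lies at bases -57 to -49 from the start site. In Txnrd1 (chr10:82859114-82859122, plus strand) it lies at -92 to -84 of 1 of 3 annotated start sites. In Srxn1 (chr2:152105552-152105560, plus strand) it lies past the start site, at bases 29 to 37. In Gclm (chr3:122245423-122245431, plus strand) it lies at -134 to -126. A match describes the letters of a window and is neither a bound site nor a cause of any change.

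AD libraries held 20604837 to 24802492 counts each, and OC libraries 19003749 to 24531346. The libraries carried the markers of their labelled tissue: in the AD no-odor group Omp, of mature sensory neurons, was at 9560 ± 386 CPM (the count scaled to the library total with TMM factors; SD, n = 3) and Cyp2g1, of sustentacular cells, at 2254 ± 122 CPM. Several features of the libraries moved with the odorants. Mitochondrially encoded RNA made up 0.233 to 0.276% of counts in AD no odor and 0.753 to 0.795% after decanal, but 0.595 to 0.915% in OC no odor and 0.387 to 0.461% after octanal. The summed level of 6 red blood cell genes, with Hbb-bs and Alas2 as defining markers, ran from 493 to 648 CPM in AD no odor, from 2141 to 2576 after decanal, from 2157.5 to 4474 in OC no odor and from 746 to 1123 after octanal. Among the no-odor libraries 3 stood apart on a list. In OC no odor 3, 11 secretory gland genes, with Muc5b and Obp1a as defining markers, summed to 65760 CPM against 16640 to 32499 CPM in the other libraries. OC no odor 1 had 11849 CPM of the 10 sustentacular genes, against 14293 to 18360 CPM elsewhere, and its 4474 CPM of red blood cell genes was the highest of all libraries. AD no odor 3 had 613 CPM of the 8 neutrophil and marrow genes, against 118.5 to 454 CPM elsewhere. No defining marker of any list was at 0 in any group. In whole tissue, fewer cells of a type and less RNA per cell cannot be told apart.

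Most of the 10 genes were well expressed. To compare genes, CPM was divided by the median length in kilobases of a gene's annotated transcripts. On that scale the order in AD no odor was Gsr at 289 ± 7.88, Srxn1 at 254 ± 9.42, G6pdx at 209 ± 13.8, Nqo1 at 204 ± 15.4, Gclm at 201 ± 0.924, Gclc at 195 ± 2.74, Txnrd1 at 158 ± 2.22, Osgin1 at 84.1 ± 4.59, Hmox1 at 30.3 ± 2.43 and Slc7a11 at 0.917 ± 0.125 CPM per kilobase (SD, n = 3). The ranges of G6pdx and Nqo1 overlapped, as did those of Nqo1 and Gclm, and the other neighbours did not overlap. The upper part of this order depends on the length used. With the longest coding transcript in place of the median, a choice made after the data were seen, Nqo1 led at 204 ± 15.4 and Txnrd1 followed at 123 ± 1.72, while Srxn1, at 40.3 ± 1.49 CPM per kilobase, lay behind Gsr, G6pdx and Gclc as well. Hmox1 and Slc7a11 were the lowest of the 10 on both scales in AD no odor. In OC no odor Osgin1 (26.9 ± 3.32) lay beside Hmox1 (27.1 ± 1.51) on the longest-transcript scale, and Slc7a11 was lowest at 0.466 ± 0.167.

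The no-odor groups of the batches did not start from the same levels. Scaled together over all 24 libraries, G6pdx averaged 187 ± 12.2 CPM in AD no odor and 105 ± 9.7 in OC no odor (SD, n = 3). Txnrd1 was at 434 ± 5.9 and 289 ± 10.3 CPM, and Gclc at 155 ± 2.11 and 102 ± 8.38. Over the 8 groups, OC no odor had the lowest mean of G6pdx, Txnrd1, Gclc, Gsr, Srxn1 and Osgin1, and the highest mean of Slc7a11. Gclm differed little, at 172 ± 0.852 and 179 ± 7.69 CPM. Batch and group cannot be told apart here, so each odorant was set against the no-odor libraries of its own batch. All odorant groups of a batch share those no-odor libraries, so their sets of calls are not independent of each other.

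**Figure D1:**
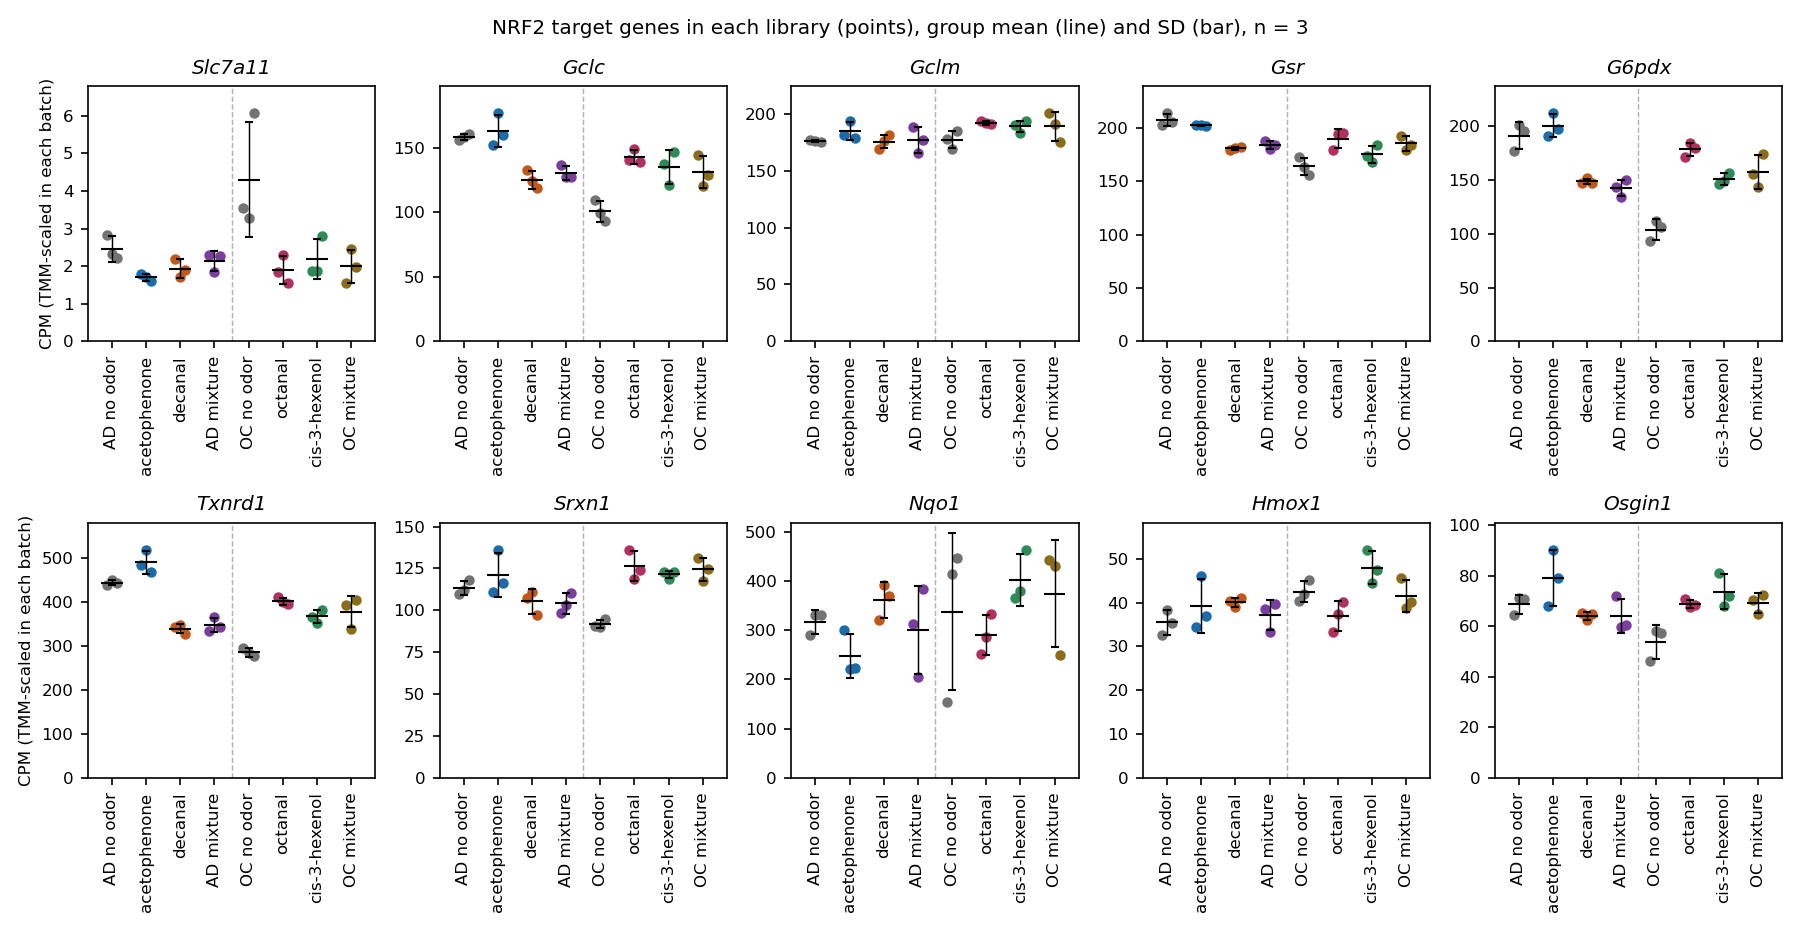
Level of each of the 10 NRF2 target genes in every library, in CPM scaled within each batch (vertical axis, from 0), with group means (lines) and SD (bars) for 3 libraries per group; the dashed line divides the AD batch from the OC batch. After decanal and the AD mixture G6pdx, Txnrd1, Gclc and Gsr lie below all AD no-odor libraries, and after octanal these 4 lie above all OC no-odor libraries.

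Acetophenone left the 10 genes without a called change. None passed the test (edgeR quasi-likelihood test, Benjamini-Hochberg adjusted p under 0.05 over all genes tested, called here and below), and over all 19525 genes 1 was called, as higher, or 0.00512%; 1287 had an unadjusted p under 0.05, and the DESeq2 Wald test called 25. The median log2 fold change of the 10 was 0.067, beside 0.006 for all genes. Exposed and no-odor libraries did not overlap in 3 of the 10, beside 14.5% of all genes. Txnrd1 had 439, 452 and 444 CPM without odor and 484, 519 and 469 CPM with acetophenone. These 3 acetophenone libraries were the highest for Txnrd1 in the batch, yet the log2 fold change of 0.14 had an adjusted p of 0.67. The 95% interval of G6pdx ran from -0.06 to 0.19 and that of Gclc from -0.08 to 0.17. Slc7a11, at 1.61 to 1.78 CPM against 2.21 to 2.84, had a log2 fold change of -0.53 with an adjusted p of 0.672. Nqo1 had 248 ± 44.9 CPM against 317 ± 23.9 (SD), overlapping, with a log2 fold change of -0.35 and an adjusted p of 0.761. With no low-count filter Nqo1 was called lower (-0.36, adjusted p = 0.000111), the 1 member among 300 genes called.

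After decanal, G6pdx, Txnrd1, Gclc and Gsr fell and no member rose: 4 of 10 were called, where 23.9% of all genes were called in either direction and 12.5% as lower. The median log2 fold change of the 10 was -0.151, beside 0.01 for all genes, and 6 of the 10 had groups that did not overlap, beside 40.7%. G6pdx, the X-linked enzyme that opens the oxidative pentose phosphate pathway, had 177, 201 and 196 CPM without odor and 147, 152 and 148 CPM after decanal. The groups did not overlap, and the level was 1.29-fold lower (log2 fold change -0.36, SE 0.06, adjusted p = 0.000521). Its near-identical autosomal copy G6pd2 had 0 to 2 counts in every library of the series and passed no filter.

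Txnrd1, the cytosolic thioredoxin reductase, fell from 439, 452 and 444 CPM to 344, 349 and 327 CPM after decanal, 1.31-fold lower (log2 fold change -0.39, SE 0.055, adjusted p = 0.00016). Gclc, the catalytic subunit of glutamate-cysteine ligase, which limits the rate of glutathione synthesis, had 156, 158 and 161 CPM without odor and 133, 124 and 119 CPM after decanal. The log2 fold change of Gclc was -0.34 (SE 0.059, adjusted p = 0.000789). Gsr, which reduces oxidised glutathione with NADPH, fell by less, from 203, 214 and 206 CPM to 179, 181 and 183 CPM (log2 fold change -0.20, SE 0.044, adjusted p = 0.00464). In all 4 genes every decanal library lay below every no-odor library. Gclm, the modifier subunit that works with Gclc, had 176 ± 0.808 CPM without odor and its 95% interval ran from -0.12 to 0.11.

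The AD mixture, set against the same no-odor libraries as decanal, gave the same 4 calls and no others. Thus 4 of 10 genes were lower, beside 22.3% of all genes called in either direction and 11.6% as lower. The median of the 10 was -0.147 beside 0.007. The groups did not overlap in these 4, beside 36.6% of all genes. G6pdx had 143, 135 and 149.9 CPM, 1.34-fold lower than without odor (log2 fold change -0.42, SE 0.06, adjusted p = 0.000145). Txnrd1 had 335, 366 and 343 CPM (log2 fold change -0.35, adjusted p = 0.000302). Gclc had 136, 127 and 127 CPM and Gsr had 188, 181 and 184 CPM, with log2 fold changes of -0.28 and -0.17 and adjusted p of 0.00309 and 0.011. All 3 mixture libraries lay below all 3 no-odor libraries for these 4 genes. With offsets for transcript length and GC content in the fit, Gclc (-0.18, adjusted p = 0.0545) and Gsr (-0.12, adjusted p = 0.0683) lost their calls for the mixture, while all 4 calls for decanal were kept. All 4 calls for decanal and for the mixture were also kept without AD no odor 3.

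Transcript length and other cell type markers moved with these falls. Over 19028 genes with a length, Spearman's rho of the log2 fold change with transcript length was -0.342 for decanal and -0.324 for the AD mixture, beside -0.075 for acetophenone. Against AD no odor, decanal was called higher for 14 of 15 mitochondrially encoded genes, 6 of 6 red blood cell genes, 7 of 8 neutrophil and marrow genes, 5 of 8 bone genes and 4 of 8 macrophage genes. It was called lower for 6 of 12 mature neuron genes and 3 of 10 sustentacular genes, with 1 of each list higher. The AD mixture gave 14, 6, 7, 7 and 4 higher in the first 5 lists and 8 and 3 lower in the other 2, again with 1 higher in each. The summed sustentacular list ran from 16214 to 17227 CPM in AD no odor, 15604 to 16734 after decanal and 14293 to 15891 after the mixture. The summed mature neuron list overlapped, at 19944 to 21368 CPM in AD no odor, 19413 to 21398 after decanal and 17163 to 21490 after the mixture. The part of these markers in the fall of the NRF2 targets was not tested; the length trend enters only through the offsets given above.

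Octanal had the opposite direction. G6pdx, Txnrd1, Gclc, Srxn1, Osgin1 and Gsr rose and Slc7a11 fell: 7 of 10 genes were called, beside 29.4% of all genes in either direction, 14.4% as higher and 15% as lower. The median of the 10 was 0.284, beside -0.021 for all genes, and the groups were apart in 9 of the 10, beside 40.4%. G6pdx had 93.3, 112 and 106 CPM without odor and 172, 184 and 179.6 CPM after octanal. This was a 1.72-fold rise (log2 fold change 0.78, SE 0.081, adjusted p = 7.76e-05) and the largest of the 10 in any comparison with no odor.

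Gclc rose from 109, 99.3 and 93.2 CPM to 140.4, 149 and 139 CPM after octanal (log2 fold change 0.50, SE 0.085, adjusted p = 0.000669). Txnrd1 rose from 297, 283 and 277.5 CPM to 411, 399.9 and 396 CPM (log2 fold change 0.49, SE 0.076, adjusted p = 0.000358). Srxn1, sulfiredoxin, which returns overoxidised peroxiredoxins to their working form, had 90.8, 89.9 and 94.6 CPM without odor and 136, 119 and 124 CPM after octanal. Its log2 fold change was 0.46 (SE 0.064, adjusted p = 0.0002). Osgin1, a growth inhibitor induced by oxidative stress, had 46.2, 58.0 and 57.4 CPM without odor and 70.6, 67.6 and 68.5 CPM after octanal (log2 fold change 0.36, SE 0.09, adjusted p = 0.00801). In each of these 5 genes every octanal library lay above every no-odor library.

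Gsr was the smallest of the rises, from 173, 163 and 156 CPM to 179.7, 194 and 196 CPM (log2 fold change 0.21, SE 0.065, adjusted p = 0.0235). Its call depended on single libraries: without OC no odor 3, octanal 2 or octanal 3 the adjusted p was 0.0643, 0.0706 or 0.0785. With only the groups compared it was 0.22 with an adjusted p of 0.0563, and with the length and GC offsets 0.09 with an adjusted p of 0.314.

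After cis-3-hexenol 6 of 10 genes were called, 5 higher and 1 lower, beside 12.2% of all genes in either direction, 5.56% as higher and 6.65% as lower; the median was 0.308 beside -0.006, and the groups were apart in 6 of the 10, beside 30.6%. G6pdx had 147, 149 and 157 CPM (log2 fold change 0.54, SE 0.081, adjusted p = 0.00337). Osgin1, at 81.2, 67.8 and 72.0 CPM, had a log2 fold change of 0.45 (adjusted p = 0.00734). Gclc (0.43, adjusted p = 0.00747), Srxn1 (0.40, adjusted p = 0.00361) and Txnrd1 (0.36, adjusted p = 0.00868) also rose, with no overlap with the no-odor libraries. Gsr, at 174, 168 and 184 CPM, overlapped them and was not called (0.10, adjusted p = 0.359). Without cis-3-hexenol 3, which holds 147 CPM of Gclc and 382 of Txnrd1, the calls of Gclc (adjusted p = 0.0532), Txnrd1 (0.0546) and Slc7a11 (0.0567) were lost and 3 of the 10 remained.

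After the OC mixture, set against the same no-odor libraries, the same 5 genes were higher. Of the 10 genes 6 were called, 5 higher and 1 lower, beside 24.2% of all genes in either direction, 11.5% as higher and 12.7% as lower. The median of the 10 was 0.271 beside -0.006, and the groups were apart in 7, beside 34.6%. G6pdx had 156, 143 and 175 CPM (log2 fold change 0.60, SE 0.081, adjusted p = 0.000245). Srxn1, at 131, 118 and 124 CPM, had a log2 fold change of 0.44 (adjusted p = 0.000338), and Txnrd1, at 393, 338 and 405 CPM, of 0.40 (adjusted p = 0.00162). Gclc (0.38, adjusted p = 0.00471) and Osgin1 (0.36, adjusted p = 0.00857) were higher as well. Gsr had no overlap with the no-odor libraries but was not called (0.18, adjusted p = 0.0594). It passed without OC no odor 1 (adjusted p = 0.0327) or OC mixture 2 (0.0466), with DESeq2 size factors (0.0496) and in the DESeq2 Wald test (0.0174).

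**Figure D2:**
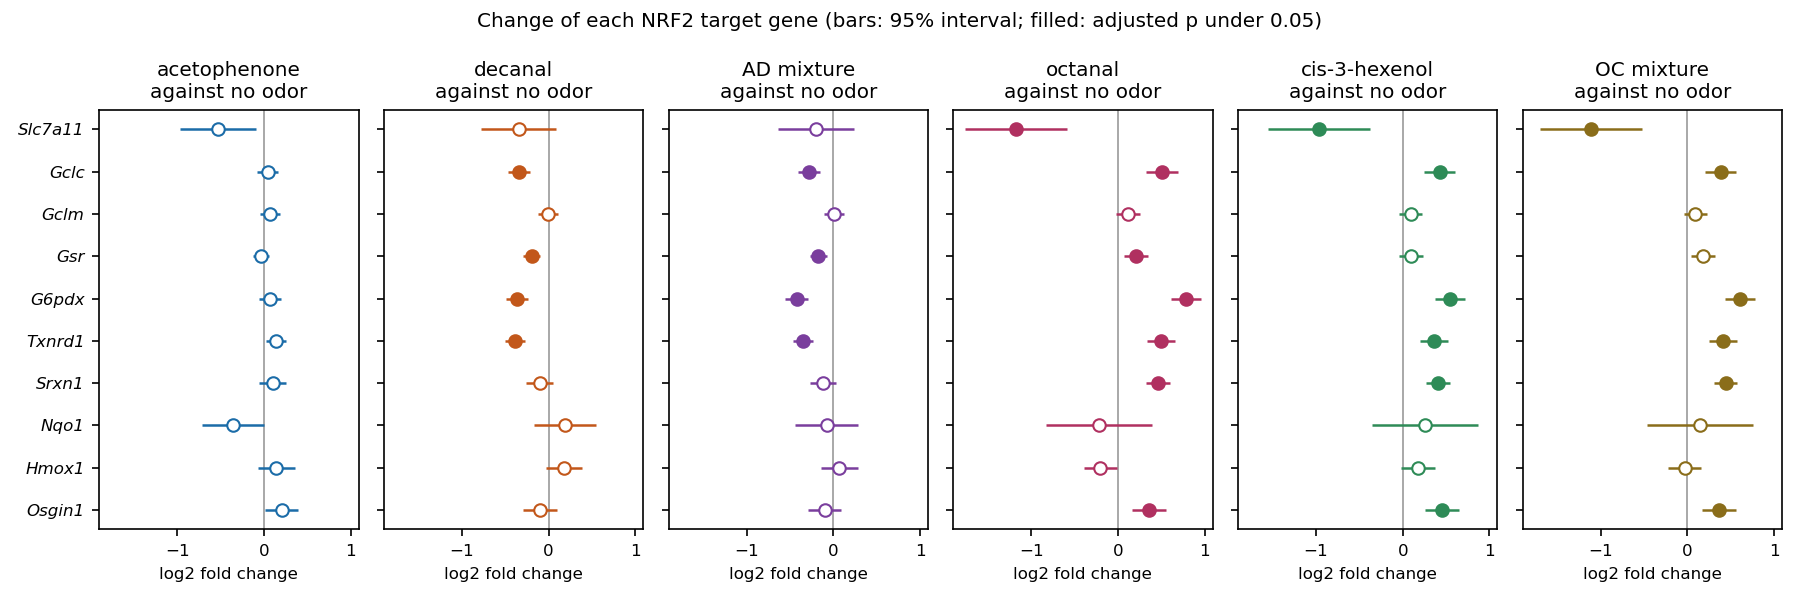
Log2 fold change of each NRF2 target gene against the no-odor group of its batch (horizontal axis), with 95% intervals (bars); filled points passed an adjusted p of 0.05 and open points did not. Filled points lie left of 0 for 4 genes after decanal and the AD mixture, and right of 0 for 6, 5 and 5 genes after octanal, cis-3-hexenol and the OC mixture, where Slc7a11 is the filled point on the left.

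Slc7a11, the cystine carrier that feeds glutathione synthesis, went the other way in the OC batch and was the only member called lower there. It was scarce: the OC no-odor libraries held 87, 68 and 128 counts, or 3.55, 3.28 and 6.06 CPM. After octanal it had 1.84, 2.29 and 1.55 CPM, 2.26-fold less (log2 fold change -1.18, SE 0.277, adjusted p = 0.00528). After cis-3-hexenol it had 1.88, 1.88 and 2.81 CPM (-0.96, adjusted p = 0.0343), and after the OC mixture 1.55, 2.44 and 1.98 CPM (-1.11, adjusted p = 0.00884). No exposed library reached the lowest of the no-odor libraries, of which replicate 3, also the library rich in gland genes, stood highest. Without OC no odor 3 the octanal call was kept (the 6 fits that each left out 1 library gave -1.33 to -0.85, adjusted p up to 0.032), while cis-3-hexenol (-0.62, adjusted p = 0.161) and the OC mixture (-0.78, adjusted p = 0.0523) lost theirs. The cis-3-hexenol call was also lost without cis-3-hexenol 1 (adjusted p = 0.114), 2 (0.122) or 3 (0.0567) with only the groups compared (-0.96, adjusted p = 0.0714) and with the length and GC offsets (-0.79, adjusted p = 0.0757). The mixture call was also lost without OC mixture 1 (-0.94, adjusted p = 0.0537).

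In the fits reported, Gclm, Nqo1 and Hmox1 were not called against no odor. Nqo1 was called in some alternatives. With no low-count filter it was lower for acetophenone, as given above, and higher for cis-3-hexenol (0.26, adjusted p = 0.0362), where 3059 genes were called. It was also called for octanal without OC no odor 1, as given below. Gclm was the steadiest of the 10, with group means between 176 and 192 CPM within their batches. In the OC batch it had 178, 169 and 185 CPM without odor and 194, 192 and 191 CPM after octanal. These octanal libraries lay above all no-odor libraries, but the log2 fold change of 0.12 (95% interval -0.02 to 0.25) had an adjusted p of 0.191. Hmox1, the inducible haem oxygenase, had 40.4, 42.1 and 45.1 CPM in OC no odor and 33.3, 37.4 and 40.1 CPM after octanal (log2 fold change -0.20, adjusted p = 0.103). After cis-3-hexenol it had 52.1, 44.6 and 47.5 CPM (0.18, adjusted p = 0.216), and after decanal 40.3, 39.0 and 41.0 CPM against 32.7, 38.4 and 35.4 CPM (0.18, adjusted p = 0.221). The values of Nqo1 follow with those of the receptors.

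Markers of other cells and GC content moved in the OC batch as well. Over 18698 genes Spearman's rho of the log2 fold change with GC content was -0.22 for octanal, -0.267 for cis-3-hexenol and -0.313 for the OC mixture. Against OC no odor, octanal was called lower for 13 of 15 mitochondrially encoded, 6 of 6 red blood cell, 7 of 8 neutrophil and marrow, 6 of 8 bone and 4 of 8 macrophage genes, and cis-3-hexenol for 0, 4, 0, 5 and 2 of them. It was called higher for 6 of 12 mature neuron genes with 2 lower, and for 5 of 10 sustentacular genes with 1 lower; for cis-3-hexenol these were 6 with 1 lower and 2 with 1 lower. The OC mixture was called lower for 2, 5, 6, 6 and 3 genes of the first 5 lists and higher for 8 mature neuron and 4 sustentacular genes, with 1 of each lower. The summed mature neuron list ran from 20543 to 23267 CPM in OC no odor and from 19358 to 20656 CPM after octanal. After cis-3-hexenol it ran from 20712 to 21498 CPM and after the OC mixture from 21216 to 21830 CPM. This sum was thus not higher after octanal, although more genes of the list were called higher than lower. The mitochondrially encoded share, at 0.7285 to 0.8115% after cis-3-hexenol, lay within the no-odor range of 0.595 to 0.915%. The secretory gland list was called lower for 4, 3 and 5 of 11 genes after octanal, cis-3-hexenol and the OC mixture, with medians of -2.718, -3.273 and -2.718. Without OC no odor 3, the library rich in these genes, or without OC no odor 1, G6pdx, Txnrd1, Gclc, Srxn1 and Osgin1 were still called higher in all 3 comparisons. The part of any of these markers in the rises was not tested.

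Within a batch, decanal was also set against acetophenone. The test called 7 of 10 genes, 6 lower and 1 higher, beside 27% of all genes. Txnrd1 was 1.44-fold lower with decanal (log2 fold change -0.53, SE 0.055, adjusted p = 1.05e-05), G6pdx 1.35-fold lower (-0.43, adjusted p = 0.000118) and Gclc 1.30-fold lower (-0.38, adjusted p = 0.000263). Osgin1 (-0.30, adjusted p = 0.02), Srxn1 (-0.20, adjusted p = 0.0458) and Gsr (-0.16, adjusted p = 0.0124) were lower and Nqo1 was higher (0.54, adjusted p = 0.0269). Srxn1 overlapped between the groups, and its call, with those of Osgin1 and Nqo1, was lost without acetophenone 2 (adjusted p of 0.249, 0.103 and 0.112), leaving 4 genes. Nqo1 also lost its call without acetophenone 3 (adjusted p = 0.11), decanal 2 (0.0938) or decanal 3 (0.0799), Srxn1 without acetophenone 3 (0.0545), decanal 1 (0.0632) or decanal 3 (0.16), and Osgin1 without decanal 2 (0.0516). The length and GC offsets left G6pdx, Txnrd1, Gclc and Osgin1 called.

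The AD mixture against acetophenone called 6 of 10 genes, all lower, beside 25.3% of all genes. Txnrd1 (-0.50, adjusted p = 1.68e-05), G6pdx (-0.49, adjusted p = 3.87e-05) and Gclc (-0.32, adjusted p = 0.000968) kept their calls in all 6 fits that left out 1 library. Srxn1 (-0.22, adjusted p = 0.0338), Osgin1 (-0.31, adjusted p = 0.0207) and Gsr (-0.14, adjusted p = 0.0309) did not. With the length and GC offsets Srxn1 (adjusted p = 0.167) and Gsr (0.201) lost their calls, with only the groups compared Srxn1 (0.056), Osgin1 (0.0525) and Gsr (0.0822) did, and without a low-count filter Gsr (0.122) did. Without acetophenone 2 all 3 were lost (adjusted p of 0.185, 0.0999 and 0.062). Single libraries of the mixture mattered too: Srxn1 was lost without AD mixture 1 (0.119) or 2 (0.07), Osgin1 without 2 (0.0663) or 3 (0.0658), and Gsr without 2 (0.0506) or without acetophenone 1 (0.0531) or 3 (0.0615). Nqo1, at 0.28, passed without AD mixture 2 (0.48, adjusted p = 0.0147).

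In the fits reported, no member was called by edgeR between a mixture and its components decanal, octanal and cis-3-hexenol. For the AD mixture against decanal 0 of 19525 genes were called by edgeR, 1090 had an unadjusted p under 0.05 and DESeq2 called 2. With no low-count filter edgeR called 132 genes, Nqo1 among them (-0.26, adjusted p = 0.0474). In the fit reported the difference in G6pdx was -0.06 (95% interval -0.19 to 0.07), in Txnrd1 0.03 (-0.08 to 0.15) and in Gclc 0.06 (-0.07 to 0.18). For the OC mixture against octanal edgeR called 0 of 19175 genes, 2447 had an unadjusted p under 0.05 and DESeq2 called 256, none of them a member. Without OC mixture 3 edgeR called 23 genes, and without a low-count filter 475, Nqo1 among them (0.36, adjusted p = 0.00485). Its G6pdx difference was -0.18 (-0.35 to -0.01, adjusted p = 0.369) and its Srxn1 difference -0.02 (-0.16 to 0.11). The OC mixture against cis-3-hexenol gave 0 calls by edgeR, 1187 unadjusted and 16 by DESeq2, with G6pdx at 0.06 (-0.11 to 0.23) and Txnrd1 at 0.04 (-0.12 to 0.20). With no low-count filter edgeR called 188 genes there, none of them a member.

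Between the single odorants of the OC batch, cis-3-hexenol against octanal, edgeR called 0 genes, 2496 had an unadjusted p under 0.05 and DESeq2 called 243. Without a low-count filter edgeR called 581 genes, and with only these groups compared 803. G6pdx was lower after cis-3-hexenol in all 3 libraries (log2 difference -0.24, 95% interval -0.41 to -0.07, adjusted p = 0.236). Hmox1 was higher in all 3, at 52.1, 44.6 and 47.5 CPM against 33.3, 37.4 and 40.1 CPM (0.38, 0.19 to 0.57, adjusted p = 0.147). The fit of only these 6 libraries called both members among its 803 genes (adjusted p of 0.0222 and 0.0177), with Nqo1 (0.48, adjusted p = 0.0178), and DESeq2 called Hmox1 (adjusted p = 0.016). Gclc differed by -0.08 (-0.26 to 0.10) and Osgin1 by 0.10 (-0.09 to 0.29).

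Octanal and decanal are both straight-chain aldehydes, given in the same volume for the same time but in different batches, and their comparisons share no library. In 1 fit of all 24 libraries the octanal response minus the decanal response was tested for each gene. It called 7 of 10 members, 6 higher and 1 lower, beside 39.2% of all 20018 genes, 18% as higher and 21.2% as lower; the median was 0.412 beside -0.067. The difference in log2 fold change was 1.13 for G6pdx (SE 0.103, adjusted p = 3.18e-08), 0.86 for Txnrd1 (SE 0.092, adjusted p = 2.15e-07), 0.82 for Gclc (SE 0.108, adjusted p = 2.34e-06), 0.55 for Srxn1 (SE 0.099, adjusted p = 0.000118), 0.44 for Osgin1 (SE 0.133, adjusted p = 0.0114) and 0.39 for Gsr (SE 0.073, adjusted p = 0.000167). These 6 were called in each of the 12 fits that left out 1 library. For Hmox1, at -0.40 (SE 0.14, adjusted p = 0.0255), 5 of the 12 fits called it, and 7 did not: without AD no odor 1 or 3, decanal 1 or 3, OC no odor 3, or octanal 1 or 2, with adjusted p from 0.0539 to 0.108. The length and GC offsets also removed its call (-0.15, adjusted p = 0.451). The interval of Gclm ran from -0.06 to 0.26. Slc7a11, at -0.85 (adjusted p = 0.0506), passed without AD no odor 1 (0.0496), OC no odor 1 (0.0408), OC no odor 2 (0.0274) or octanal 2 (0.0394), and Nqo1, at -0.43, passed without OC no odor 1 (-0.75, adjusted p = 0.0426).

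The signs of the responses to octanal and decanal were opposite in 9 of the 10 genes (90%), all but Slc7a11, and in 70.6% of 19015 genes tested in both batches. G6pdx, Txnrd1, Gclc and Gsr were called higher with octanal and lower with decanal, 40% of the members, beside 7.53% of all genes. The opposition was not limited to these genes: of 2574 genes called in both comparisons, 2537 were called in opposite directions. Because each aldehyde was tested in its own batch, the odorant and the batch, with its starting level, cannot be told apart in this difference.

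**Figure D3:**
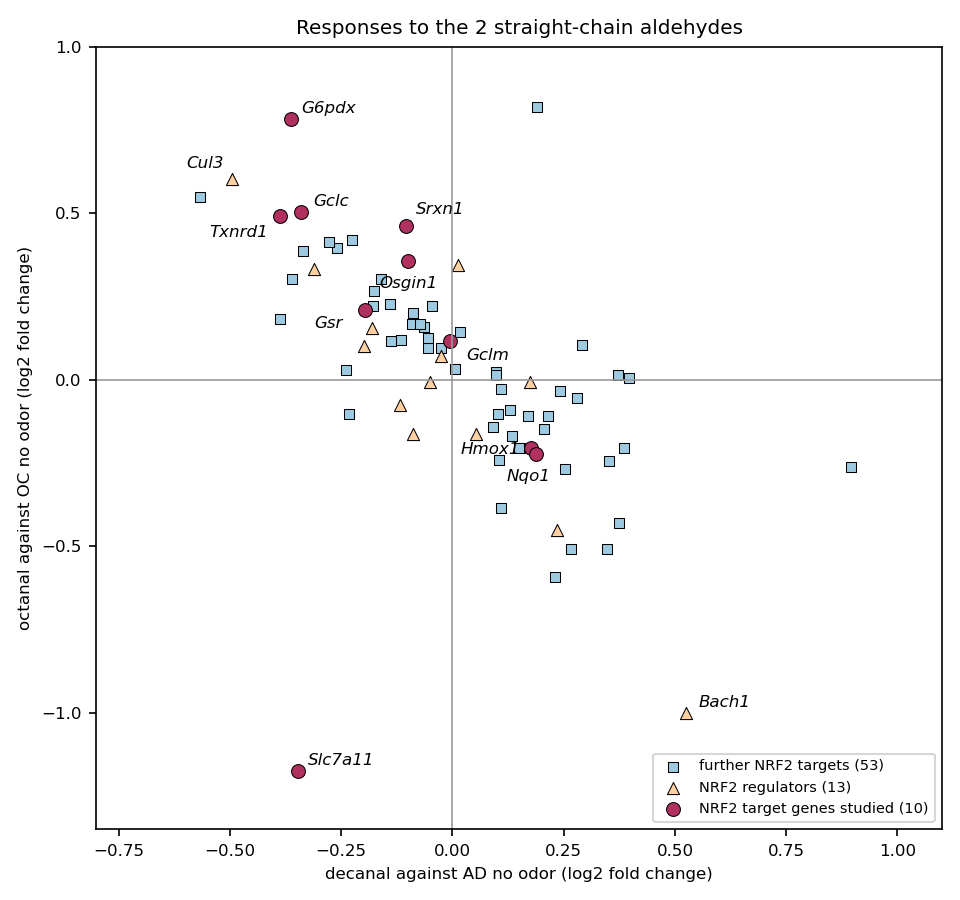
Log2 fold change with decanal against AD no odor (horizontal axis) and with octanal against OC no odor (vertical axis) for the 10 NRF2 target genes, 53 further NRF2 targets and 13 regulators. G6pdx, Txnrd1, Gclc and Gsr lie at the upper left, Slc7a11 alone lies far down on the left, and Bach1 lies at the lower right.

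Of the regulators of the pathway, Nfe2l2 itself had 295 ± 2.23 CPM in AD no odor, 257 ± 14.1 after decanal and 246 ± 23.8 after the AD mixture (SD, n = 3), and it fell in both (log2 fold changes -0.20 and -0.26, adjusted p = 0.0466 and 0.0118). In the OC batch it was not called: 277 ± 37.3 CPM without odor, 297 ± 10.7 after octanal (0.10, adjusted p = 0.412), 301 ± 16.5 after cis-3-hexenol and 307 ± 5.1 after the OC mixture. Keap1 fell with decanal (-0.18, adjusted p = 0.0131) and the AD mixture (-0.22, adjusted p = 0.00452) and rose with octanal (0.16, adjusted p = 0.0329). Cul3, the scaffold of the ligase that KEAP1 serves, moved most steadily. It went from 162 ± 2.04 CPM to 115 ± 3.44 after decanal (-0.50, adjusted p = 3.56e-06), and from 95.5 ± 4.98 CPM to 145 ± 6.34 after octanal (0.60, adjusted p = 0.000117). Calls of single genes under the alternative settings, or with a library left out, were followed for the members only. Those of regulators and of the other lists, such as Nfe2l2 with decanal, were not checked in that way.

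In the OC batch G6pdx, Txnrd1, Gclc, Srxn1 and Osgin1 were called higher in every comparison with no odor, Slc7a11 was called lower and Hmox1 was not called. Bach1, a repressor of NRF2 targets, was called lower in the same comparisons, and its part in these changes was not tested. It was scarce, with 7.84 ± 1.56 CPM in OC no odor, 3.91 ± 0.59 after octanal (adjusted p = 0.00077), 4.91 ± 0.41 after cis-3-hexenol (-0.67, adjusted p = 0.0214) and 4.59 ± 0.52 after the OC mixture (-0.77, adjusted p = 0.00471). In the AD batch its values of 0.52 with decanal and 0.51 with the mixture were not called (adjusted p = 0.0563 and 0.0695). Mafg, a small MAF partner shared by NRF2 and BACH1, rose with decanal (0.23) and the AD mixture (0.28) and fell with octanal (-0.45), cis-3-hexenol (-0.32) and the OC mixture (-0.45). Btrc, an F-box protein that marks NRF2 for destruction apart from KEAP1, fell with decanal (-0.31) and rose with octanal (0.33). Of the 13 regulators, 2 were called higher and 4 lower with decanal, 2 and 5 with the AD mixture, 3 and 2 with octanal, 2 and 3 with cis-3-hexenol, 1 and 3 with the OC mixture, and none with acetophenone. The shares of all genes called higher and lower were 11.4% and 12.5% with decanal and 10.6% and 11.6% with the AD mixture. They were 14.4% and 15% with octanal, 5.56% and 6.65% with cis-3-hexenol, and 11.5% and 12.7% with the OC mixture. The medians of the regulator list lay between -0.079 and 0.077.

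Further NRF2 targets did not share 1 direction. Of 54 tested in the AD batch, from a list of 56, decanal called 13 higher and 8 lower and the AD mixture 11 higher and 10 lower; acetophenone called none. Of all genes, 11.4% were called higher and 12.5% lower with decanal, and 10.6% and 11.6% with the mixture. Of 53 tested in the OC batch, octanal called 10 higher and 6 lower, cis-3-hexenol 1 and 2, and the OC mixture 7 and 2. Of all genes there, 14.4% were called higher and 15% lower with octanal. With cis-3-hexenol these shares were 5.56% and 6.65%, and with the OC mixture 11.5% and 12.7%. The medians were 0.098 for decanal, 0.023 for octanal and 0.008 for cis-3-hexenol.

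Among those further targets, Gpx4, which reduces lipid peroxides, went from 620 ± 12.9 CPM in AD no odor to 810 ± 27.0 after decanal (log2 fold change 0.39, adjusted p = 0.000144). Sod1, the cytosolic superoxide dismutase, rose with decanal (0.37, adjusted p = 0.000562) and fell with octanal (-0.43, adjusted p = 0.000809). Fth1, the heavy chain of the iron store ferritin, rose with decanal (0.29, adjusted p = 0.00119), the AD mixture (0.27) and the OC mixture (0.27). Gstp1, a glutathione transferase, fell with octanal (-0.51, adjusted p = 0.0018), cis-3-hexenol (-0.33, adjusted p = 0.046) and the OC mixture (-0.34, adjusted p = 0.022). Blvrb, a biliverdin reductase of haem breakdown, fell with octanal (-0.51, adjusted p = 0.00659); it is also abundant in red cells, whose genes fell in the same libraries.

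Others of them were called lower in the AD batch, higher in the OC batch, or both. Abcc3, an exporter of conjugated compounds, fell with decanal (-0.57) and the AD mixture (-0.71) and rose with octanal (0.55, adjusted p = 0.00175). Lrrc8d, a subunit of volume-regulated anion channels, fell with decanal (-0.34) and the AD mixture (-0.39) and rose with octanal (0.39), cis-3-hexenol (0.33) and the OC mixture (0.35). Cat, catalase, fell with decanal (-0.26), and Pgd, the NADPH-yielding step after G6pdx and its lactonase, fell with the AD mixture (-0.29, adjusted p = 0.00515). Ugdh, which makes UDP-glucuronate, rose with octanal (0.42, adjusted p = 0.00531), and Idh1, another source of cytosolic NADPH, rose with the OC mixture (0.33, adjusted p = 0.0313). In 44 of the 53 further targets tested in both batches (83%) the signs of octanal and decanal were opposite, beside 90% of the members and 70.6% of all genes.

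Most other genes of the pentose phosphate pathway were not called in the direction of G6pdx. With G6pdx included, the median of the list was -0.088 for decanal, -0.151 for the AD mixture and 0.074 for octanal. It was -0.011 for cis-3-hexenol and -0.002 for the OC mixture. The summed list ran from 1346.5 to 1452.2 CPM in AD no odor and from 1216.6 to 1321.2 CPM after the AD mixture, without overlap. In OC no odor it ran from 1207.2 to 1457.8 CPM, and after octanal from 1405.5 to 1432.4 CPM. Of 8 genes tested, decanal called 1 higher and 2 lower, the AD mixture 1 and 3, octanal 2 and 1, cis-3-hexenol 1 and 0, and the OC mixture 2 and 2; G6pdx is 1 of the 8 and of the calls in each. With octanal the others called were Rpe (0.26) and Pgls (-0.38), and Pgd (0.03) and Tkt (0.12) were not called; these genes were chosen after their values were seen. Of 20 other genes of glutathione and thioredoxin metabolism, decanal called 8 higher and 2 lower and octanal 2 higher and 5 lower. Of these, also chosen after their values were seen, Gpx1 was higher with decanal (0.55) and lower with octanal (-0.34), and Prdx5 was higher with decanal (0.33) and lower with octanal (-0.37). Slc3a2, the heavy chain that partners Slc7a11, was not called in any comparison with no odor, at 0.01 with octanal. Of 15 targets of ATF4, a factor of the amino acid and stress responses that also acts on Slc7a11, octanal called 2 higher and 1 lower. The 1 lower was Atf5 (-1.14), named after its value was seen. The shares of all genes to set beside the counts of these lists are those given with the further targets.

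Over the 12 libraries of a batch, several members varied together. The mean over both batches of Pearson's r of log2 CPM was 0.94 for G6pdx with Txnrd1 and 0.94 for Txnrd1 with Gclc, 0.89 for Gclc with Gsr and 0.86 for Txnrd1 with Srxn1. These libraries share groups, depth and tissue composition, so r is a description. Such likeness was common: of 16460 genes with at least 1 CPM in both batches, 409 (2.48%) had a mean r over 0.9 with G6pdx and 460 (2.79%) with Txnrd1, while no gene did with Gclm, Hmox1, Srxn1, Osgin1 or Slc7a11. Among 14495 of them with a plain symbol, the genes most like G6pdx were Dym, Ints4 and Prmt9, at 0.98 for each. Those most like Txnrd1 were Rrn3, Gosr1 and Qrich1, also at 0.98 for each. Gclc was the only member with another of the 10, Txnrd1, among its nearest 3 genes. For Gsr the nearest was Gpsm2 (0.93), for Srxn1 Olfr789 (0.90), for Osgin1 Stx5a (0.89), for Slc7a11 Cep85l (0.83), for Gclm Actr2 (0.76) and for Hmox1 Pnck (0.67).

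Nqo1, the quinone reductase, varied widely within groups. In the OC no-odor group it had 155, 414 and 446 CPM, and in the AD mixture 312, 205.5 and 383 CPM. Its SD of 159.7 CPM in OC no odor was above its lowest value there. Its 95% interval for octanal against no odor, -0.83 to 0.39 around -0.22, was accordingly broad. Without OC no odor 1 the octanal value was -0.55 with an adjusted p of 0.0451, and the values for cis-3-hexenol and the OC mixture turned from 0.25 and 0.15 to -0.08 and -0.19. The genes most like Nqo1 over libraries were the olfactory receptors Olfr549 and Olfr642 (mean r of 0.95 each) and Sult1c1 (0.93), a sulfotransferase of sustentacular cells.

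Nqo1 is known as a marker of the dorsal zone of the olfactory epithelium, where class I olfactory receptors are also expressed. After these values were seen, the 163 class I receptors were summed in each library. OC no odor 1, with 155 CPM of Nqo1, held 145 CPM of class I receptors, while OC no odor 2 and 3, with 414 and 446 CPM, held 308 and 226 CPM. AD mixture 2, with 205.5 CPM of Nqo1, held 157 CPM of class I receptors, and mixtures 1 and 3, with 312 and 383 CPM, held 284 and 307 CPM. Acetophenone 2 and 3 (220.4 and 224 CPM of Nqo1) held 164 and 195 CPM, and OC mixture 3 (249 CPM) held 206 CPM against 467 and 375 CPM in its other 2 libraries. In these groups the libraries with the least Nqo1 had the least class I receptor RNA. The sum of 1110 class II receptors took another order than Nqo1 in the AD mixture, at 3763, 4692 and 4808 CPM in replicates 1, 2 and 3. It kept the order of Nqo1 after decanal, at 4178, 4785 and 4395 CPM, and after cis-3-hexenol, at 4415, 4550 and 4792 CPM. How much of the epithelium each dissection took from the dorsal zone was not tested.

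**Figure D4:**
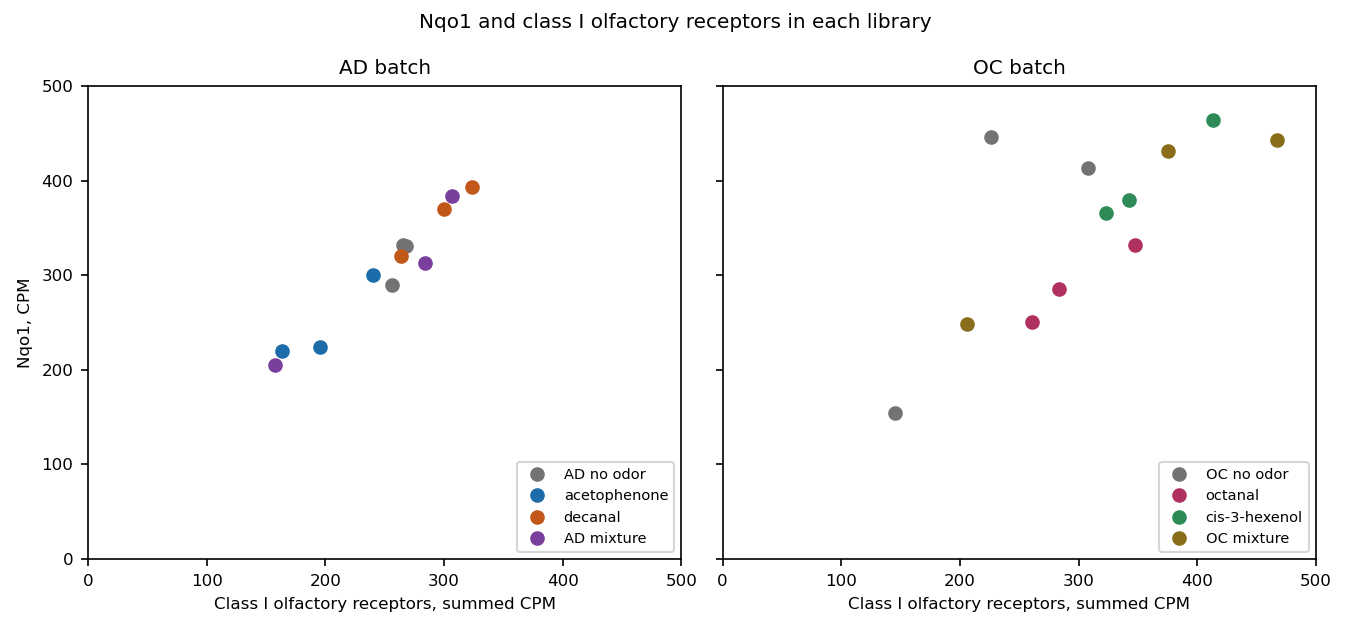
Nqo1 (vertical axis, CPM) against the summed level of 163 class I olfactory receptors (horizontal axis, CPM) in each library of the AD batch (left) and the OC batch (right), coloured by group. The lowest Nqo1 library of each batch, AD mixture 2 at 205.5 CPM and OC no odor 1 at 155 CPM, also has the lowest class I sum of its batch.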

How the data were processed

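Values are expected counts per Ensembl gene, 1 table per batch, as deposited by the authors. Per the submitters' processing notes STAR 2.7.10b, Salmon 1.10.1, R 4.4.2 and GRCm39 were used; the role of each and the annotation release are not given in the sources used here. The 12.8% (AD) and 12.6% (OC) of values that were not whole were rounded, and 0 columns were left unmapped. Symbols and lengths came from GENCODE M21 (GRCm38) by Ensembl ID; 0.317% of counts lacked a symbol. Genes were filtered (filterByExpr), TMM-scaled and tested with edgeR 4.0.16 in R 4.3.3, 1 fit per batch of 12 libraries without a block, two-sided; an SE is the log2 fold change over the square root of F. The members and lists were chosen with earlier results of these data known. All members and any regulator may be named; of further targets, the 3 called genes with the smallest p per direction and comparison against no odor; of likeness, the 3 highest mean r; of cell type lists, the defining markers. Libraries of a group are biological replicates by their labels and differed by more than counting noise (chi-square per degree of freedom from 5.27 to 112). The pipeline was tested on simulated counts. Alternatives were DESeq2 1.42.0 (size factors and Wald test), other filters, a robust fit, a replicate block, length and GC offsets, only the groups compared, and leaving out each library.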

Additional observations from a re-analysis of the deposited data

Results flagged for a closer look

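The octanal response differed from the decanal response, by a test of the difference itself, in 7 of the 10 genes. The difference in log2 fold change was 1.13 for G6pdx, 0.86 for Txnrd1, 0.82 for Gclc, 0.55 for Srxn1, 0.44 for Osgin1, 0.39 for Gsr and -0.40 for Hmox1 (edgeR quasi-likelihood test, adjusted p of 3.18e-08, 2.15e-07, 2.34e-06, 0.000118, 0.0114, 0.000167 and 0.0255). Of all genes 39.2% were called in the same test, and each aldehyde was measured in its own batch.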

How the results depend on the processing

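Depth limited Slc7a11 (36 to 128 counts a library), and with 3 libraries a group small changes such as those of Gclm could not be told from 0. Each p-value sets a change against the spread between libraries of a group, estimated over all groups in the fit and moderated across genes. No pair of groups met the rule for same-numbered libraries deviating together (all 3 correlations over 0.1 in 0 of 12 pairs of groups, r from -0.316 to 0.402). With 3 libraries a group this rule could miss a pairing. A fit with the replicate number as a block called the same number of members in each comparison (4 for decanal, 7 for octanal, 6 for cis-3-hexenol). The member counts moved by over 1.5 times as follows. Length and GC offsets gave 2 for the AD mixture and 4 for decanal against acetophenone, both also with the replicate block. Without a low-count filter, acetophenone, the AD mixture against decanal and the OC mixture against octanal gave 1 each and cis-3-hexenol against octanal 2. The last comparison gave 1 by the DESeq2 Wald test and 3 with only the groups compared, and the AD mixture against acetophenone gave 3 with only the groups compared. Leaving out 1 library gave 3 to 6 for cis-3-hexenol, 4 to 7 for decanal against acetophenone and 3 to 5 for the AD mixture against acetophenone. Genes called over the whole table with the offsets were 2818 for decanal (4660 without), 2833 for the AD mixture (4347) and 1234 for cis-3-hexenol (2341), and with the block added 2638, 2699, 841 and, for the OC mixture, 2910 (4647). With only the groups compared they were 1047 for cis-3-hexenol, 2816 for the OC mixture and 5 for acetophenone (1), which gave 300 without a low-count filter. Without 1 library they ran from 533 (without cis-3-hexenol 3) to 3150 for cis-3-hexenol, 3035 to 4960 for the OC mixture and 0 to 39 for acetophenone.

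Over single genes, 1090 values kept direction and call under the other settings, 30 lost a call, 15 gained one and 33 changed sign; without 1 library these were 749, 38, 9 and 44. No value that changed sign was called in the fit reported. With the offsets, and in parentheses with the replicate block added, Gclm was 0.098 (0.098) for decanal, 0.027 (0.026) for decanal against acetophenone, 0.0048 (0.0037) for the AD mixture against acetophenone, -0.022 (-0.023) for the AD mixture against decanal, 0.00012 (0.00035) for cis-3-hexenol against octanal, -0.020 (-0.021) for the OC mixture against cis-3-hexenol and -0.026 (-0.025) for the octanal minus decanal response. Hmox1 was -0.040 (-0.036) for the AD mixture, 0.048 (0.046) for the OC mixture and -0.10 (-0.095) for decanal against acetophenone. Osgin1 was 0.038 (0.040) for the AD mixture against decanal, and for the OC mixture against octanal Srxn1 was 0.044 (0.044) and Gsr 0.0033 (0.0026). Gclm also turned to 0.0021 for decanal with 1 CPM in 3 libraries, to -0.0027 for the AD mixture without a low-count filter and -0.00030 by the DESeq2 Wald test. For the OC mixture against cis-3-hexenol Gclm was -7.5e-05 with DESeq2 size factors, -0.00073 with 1 CPM in 3 libraries and -0.00030 with the replicate block. Osgin1 was 0.00070 for the AD mixture against decanal without a low-count filter.

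Without 1 library, signs changed within these ranges. Gclc ran from -0.016 to 0.087 for acetophenone. For the AD mixture Gclm ran from -0.054 to 0.032 and Nqo1 from -0.31 to 0.11. Nqo1 ran from -0.55 to 0.032 for octanal, -0.084 to 0.52 for cis-3-hexenol and -0.19 to 0.40 for the OC mixture, where Hmox1 ran from -0.095 to 0.024. Hmox1 ran from -0.053 to 0.16 for decanal and -0.16 to 0.049 for the AD mixture, both against acetophenone. For the AD mixture against decanal Txnrd1 ran from -0.00076 to 0.071, Srxn1 from -0.066 to 0.031, Osgin1 from -0.084 to 0.051 and Gclm from -0.026 to 0.061. Slc7a11 ran from -0.012 to 0.36 for cis-3-hexenol against octanal. For the OC mixture against octanal Srxn1 ran from -0.070 to 0.029, Osgin1 from -0.027 to 0.051, Gclm from -0.070 to 0.026 and Slc7a11 from -0.11 to 0.22. For the OC mixture against cis-3-hexenol G6pdx ran from -0.014 to 0.13, Txnrd1 from -0.0077 to 0.11, Srxn1 from -0.0065 to 0.072, Gclc from -0.12 to 0.024, Gclm from -0.046 to 0.053, Nqo1 from -0.25 to 0.12 and Slc7a11 from -0.32 to 0.076. The cause of these changes was not tested.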
